A study of Mus musculus with 16 samples.

Results

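Fatty acid oxidation and ketogenesis genes were followed across 16 mouse livers. The genes are the 35 rows of the count table whose Ensembl identifiers map to a list of symbols for mitochondrial and peroxisomal beta-oxidation, the carnitine shuttle, ketone body formation and PPAR alpha. All 35 matched a row of the table, which holds 53801 genes, and all 35 were among the 14351 genes that had enough reads to be tested. Each of the 4 groups held 4 livers, each from a separately numbered animal. They were a liver-specific knockout of Degs1 on a high-fat diet, control mice on the high-fat diet, the same knockout on normal chow, and control mice on chow. Degs1 encodes dihydroceramide desaturase, which makes ceramide from dihydroceramide. The sources used here do not give the driver of the deletion, the genotype of the controls, the strain, the age or the time on diet. Total RNA from whole liver was depleted of ribosomal RNA and sequenced with a strand-specific kit.

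Fatty acids are activated to acyl-CoA esters, carried into mitochondria as carnitine esters, and shortened there in a repeating cycle of dehydrogenation, hydration, a second dehydrogenation and thiolysis. The acetyl-CoA that is released can be turned into ketone bodies, which the liver exports as fuel during fasting. Peroxisomes run a parallel cycle on very long and branched chains. PPAR alpha is a nuclear receptor that binds fatty acids and switches on many genes of these pathways in the liver.

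Total counts ran from 11938596 to 23250885 per liver. Levels are given as CPM, the counts of a gene scaled to library size and trimmed-mean factors, and a count of 3 corresponded to between 0.135 and 0.292 CPM. Degs1, the targeted gene, was at 41.5, 28.1, 26.1 and 29.1 CPM in the high-fat knockouts and at 60.1, 62.2, 101 and 70.2 CPM in the high-fat controls. It was at 39.3, 39.3, 37.3 and 35.9 CPM in the chow knockouts and at 85.4, 80.4, 87.8 and 84.8 CPM in the chow controls, so neither diet showed an overlap between genotypes. The log2 fold changes, knockout over control, were -1.23 on the high-fat diet (SE 0.17, adjusted p = 0.00376 by edgeR) and -1.16 on chow (SE 0.17, adjusted p = 0.0123 by edgeR). The high-fat value was -1.04 without high-fat control 3. The chow call was lost in 7 of the 16 fits that left out 1 liver and the high-fat call in 0. In a model with the unspliced share both calls were lost (-0.92 and adjusted p = 0.0535 on the high-fat diet, -0.96 and adjusted p = 0.0543 on chow, by edgeR), and with only the groups compared the high-fat call was lost (adjusted p = 0.142 by edgeR). Summed over the 9 of 10 hepatocyte markers that matched a row, levels were 76679 to 97642 CPM in high-fat knockouts, 97178 to 126014 CPM in high-fat controls, 135749 to 162056 CPM in chow knockouts and 122508 to 138507 CPM in chow controls. The share of reads in the sense-intronic and TEC gene classes (TEC marks loci still to be tested experimentally), used here as a measure of unspliced RNA, was 0.162% to 0.191% in high-fat knockouts, 0.0463% to 0.0878% in chow knockouts and 0.0263% to 0.0411% in chow controls. In the high-fat controls it was 0.0218% in replicate 3 and 0.0512% to 0.164% in the other 3. On chow the share did not overlap between genotypes, and on the high-fat diet only high-fat control 1 reached the knockout range. A model with this share therefore cannot tell it apart from genotype on chow, and hardly can on the high-fat diet. Summed over 8 macrophage markers, levels were 315 to 614 CPM in high-fat knockouts, 273 to 616 CPM in high-fat controls, 293 to 472 CPM in chow knockouts and 274 to 751 CPM in chow controls, so all groups overlapped. The 5 skeletal muscle markers summed to at most 2.96 CPM in any liver. Summed over 5 adipocyte markers, levels were 1579 to 2318 CPM in high-fat knockouts, 2346 to 3914 CPM in high-fat controls, 2127 to 3324 CPM in chow knockouts and 2977 to 3853 CPM in chow controls. Of these markers, Adipoq, Plin1 and Retn were too low to be tested, so the sum was made up mostly of the other 2, Car3 and Cfd. The order of the groups in this sum is therefore not that of Adipoq and Plin1. High-fat knockout 4 held 6.58 CPM of Adipoq and 4.06 CPM of Plin1, and no other liver held over 0.353 CPM of Adipoq or 0.971 CPM of Plin1. In whole liver, fewer cells of a type and less RNA per cell cannot be told apart. Animal numbers in the labels do not overlap between diets, nor between genotypes within a diet, so an effect that goes with the animal number cannot be told apart from either.

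High-fat control 3 stood apart for the oxidation genes. It was the highest of its group for 26 of the 35 genes, while 35.5% of all genes tested had their group maximum in that liver and 40.1% their minimum. It was also the highest of all 16 livers for 24 of the 35, where 20% of all genes tested had their maximum there. The summed level of the 35 genes was 13092 CPM in high-fat control 3 and 8202 to 10816 CPM in high-fat controls 1, 2 and 4. By group the sum averaged 8415 ± 773 CPM in high-fat knockouts, 10514 ± 2033 CPM in high-fat controls, 9167 ± 399 CPM in chow knockouts and 9321 ± 810 CPM in chow controls (mean ± SD, n = 4 each). The sums rest on the trimmed-mean factors, at 0.879 in high-fat control 3 and 1.04 to 1.07 in high-fat controls 1, 2 and 4. They were 1.11 to 1.21 in high-fat knockouts. Without these factors, the 35 genes held 1.15% of counts in high-fat control 3 and 0.864% to 1.16% in the other high-fat controls. Their share was 0.868% to 1.07% in high-fat knockouts, 0.805% to 0.892% in chow knockouts and 0.742% to 0.927% in chow controls. So the order of groups depends on scaling. For 17 of the 35 genes the lowest of all 16 livers was a high-fat knockout, which held for 21.7% of all genes tested. The summaries over the 35 genes that use this liver are therefore also given without it.

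**Figure D1:**
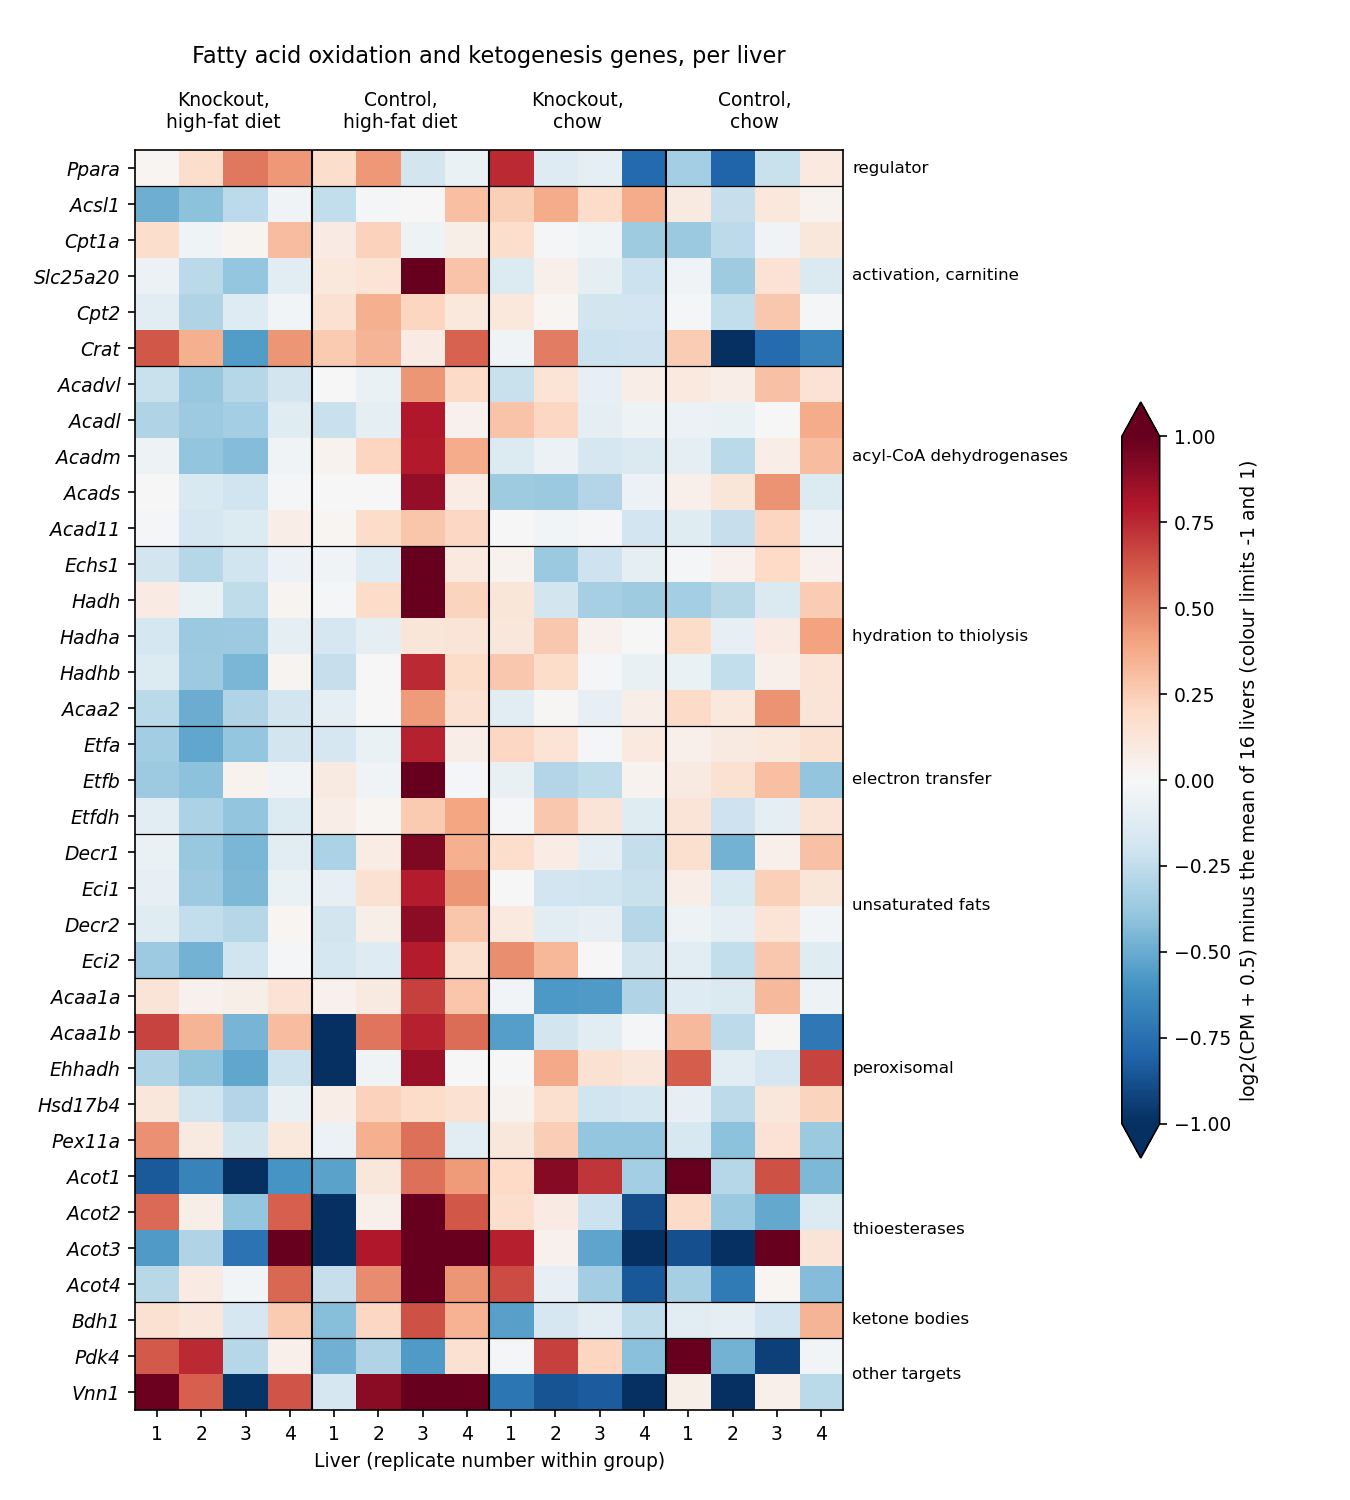
Each row is a gene and each column a liver. Colour is the log2(CPM + 0.5) minus the mean of that gene over the 16 livers, red above and blue below, with genes ordered by role and livers by group. The column of high-fat control 3 is red for most genes, and most rows are blue in the high-fat knockouts.

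Per kilobase of exon, the genes spanned a wide range of levels. Acaa2, the mitochondrial 3-ketoacyl-CoA thiolase, stood highest at a mean of 628 CPM per kilobase over the 16 livers, followed by Acaa1b at 369, Acadvl at 161 and Hsd17b4 at 145. The lowest were Acot3 at 1.65, Pdk4 at 2.01, Acot2 at 2.45 and Acot1 at 3.44 CPM per kilobase. Several genes share long identical stretches with other genes, and the sources used here do not give how reads that map to more than 1 place were counted. Of the 50-base words in the longest coding transcript, 67.3% in Etfb, 62.4% in Hadhb, 35.5% in Acaa1b, 34% in Acaa1a, 33.2% in Acot1, 27.7% in Acot2 and 19.5% in Acot3 also occur in another gene. The partner that shares most is Gm45233 for Etfb, Gm13910 for Hadhb, Gm49366 for Acot3, and the sister gene for the Acaa1 pair and for Acot1 and Acot2. Values of these 7 genes are uncertain for that reason.

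PPAR alpha binds DNA with its partner RXR at a direct repeat of the hexamer AGGTCA with 1 base between the copies. RefSeq promoter windows on GRCm38.p6, from 250 bases before to 50 bases after a gene's start, matched 30 of the 35 genes in 33 windows, and none was matched for Acaa2, Crat, Decr1, Hsd17b4 and Vnn1. A repeat with at most 2 mismatches over its 12 fixed letters, searched on both strands, was found in 4 of the 33 windows (12.1%), against 3.06% of the windows of all genes tested. The single hexamer AGGTCA, also on both strands, was found in 7 of the 33 windows (21.2%), against 13.2% for all genes tested. In Acot4 and Echs1 a copy of the exact hexamer lies inside the repeat. The 4 windows with a repeat are shown because they belong to the carnitine carrier, an electron carrier subunit, the enoyl-CoA hydratase and a thioesterase, which are described further on. Capitals mark the repeat, and positions are counted from the start as 0. In the Slc25a20 window (chr9:108661886-108662185, plus strand) it lies at 6 to 18. In Etfa (chr9:55512194-55512493, minus strand) it lies at -77 to -65, and in Echs1 (chr7:140116372-140116671, minus strand) at -83 to -71. In Acot4 (chr12:84038129-84038428, plus strand) it lies at -13 to -1. These are matches of letters, and no binding was measured.
Slc25a20: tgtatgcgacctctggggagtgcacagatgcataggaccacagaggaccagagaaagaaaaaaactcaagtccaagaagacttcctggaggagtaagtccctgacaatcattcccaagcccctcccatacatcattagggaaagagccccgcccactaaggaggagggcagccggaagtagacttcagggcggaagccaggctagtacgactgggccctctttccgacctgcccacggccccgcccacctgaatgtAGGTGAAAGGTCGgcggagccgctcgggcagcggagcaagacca
Etfa: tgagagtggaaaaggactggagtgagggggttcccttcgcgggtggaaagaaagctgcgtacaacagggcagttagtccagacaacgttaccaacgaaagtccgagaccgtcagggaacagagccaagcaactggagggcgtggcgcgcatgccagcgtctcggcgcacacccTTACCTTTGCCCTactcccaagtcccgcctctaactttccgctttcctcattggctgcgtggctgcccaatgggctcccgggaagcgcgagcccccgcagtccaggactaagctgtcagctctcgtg
Echs1: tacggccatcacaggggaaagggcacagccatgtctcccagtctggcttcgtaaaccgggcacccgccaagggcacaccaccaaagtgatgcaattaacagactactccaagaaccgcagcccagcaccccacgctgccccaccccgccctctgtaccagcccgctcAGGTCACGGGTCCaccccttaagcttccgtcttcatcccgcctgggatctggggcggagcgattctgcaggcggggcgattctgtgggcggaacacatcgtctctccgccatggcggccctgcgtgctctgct
Acot4: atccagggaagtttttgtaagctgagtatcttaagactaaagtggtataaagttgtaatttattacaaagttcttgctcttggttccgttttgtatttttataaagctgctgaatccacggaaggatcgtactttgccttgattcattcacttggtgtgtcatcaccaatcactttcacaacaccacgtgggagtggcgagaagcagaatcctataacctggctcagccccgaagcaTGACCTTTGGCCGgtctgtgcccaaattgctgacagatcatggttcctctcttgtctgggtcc

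The first comparison asks how loss of Degs1 went with these genes on the high-fat diet. Most were at lower levels in the knockouts, by a modest amount, and none passed the test. The log2 fold change, knockout over control, was below 0 for 32 of the 35 genes, with a median of -0.43, beside 47.8% below 0 and a median of 0.03 over all genes tested. The quasi-likelihood F test of edgeR with Benjamini-Hochberg adjustment over all genes tested called 0 of the 35 at an adjusted p under 0.05, and it called 0.111% of all genes tested. At an unadjusted p under 0.05, 18 of the 35 were lower and 0 higher, where 12.8% of all genes tested were lower and 8.54% higher. DESeq2 called 7 of the 35, all lower, against 4.41% of all genes tested, and limma-voom called 0, against 0.216%. The 18 comprised all 4 auxiliary enzymes for unsaturated acids, all 3 electron carriers, 4 of 5 enzymes from hydration to thiolysis, 3 of 5 acyl-CoA dehydrogenases, 3 of 5 genes of activation and carnitine transport, and 1 of 4 thioesterases. The auxiliary enzymes include the peroxisomal Decr2 and Eci2. The peroxisomal genes Acaa1a, Acaa1b, Ehhadh, Hsd17b4 and Pex11a were not among the 18, nor were Ppara, Bdh1, Pdk4 and Vnn1.

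The differences were smaller without high-fat control 3. Without it the median was -0.21, with 28 of 35 below 0, beside 50.3% below 0 over all genes tested. Then 10 of the 35 were lower at an unadjusted p under 0.05, where 7.14% of all genes tested were. In 8 genes every high-fat knockout was below every high-fat control, where that held for 7.79% of all genes tested, and 0 genes showed the opposite, where 5.44% did. The 8 were Slc25a20, Cpt2, Acadvl, Acadm, Acaa2, Etfa, Etfdh and Acot1, and the same 8 did not overlap without high-fat control 3, where 10.3% of all genes tested were lower without overlap. In a model with the log2 unspliced share as a further term the median was -0.06, with 25 of 35 below 0, beside -0.03 for all genes tested. In that model 1 of the 35 had an unadjusted p under 0.05 by edgeR, against 18 without the term, and 0 of all genes tested were called. The share was higher in every high-fat knockout than in high-fat controls 2, 3 and 4, so it can hardly be told apart from genotype here. The summed hepatocyte markers, at 76679 to 97642 CPM in the high-fat knockouts and 97178 to 126014 CPM in the high-fat controls, ran the same way as the oxidation genes, and their part in the result was not tested.

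**Figure D2:**
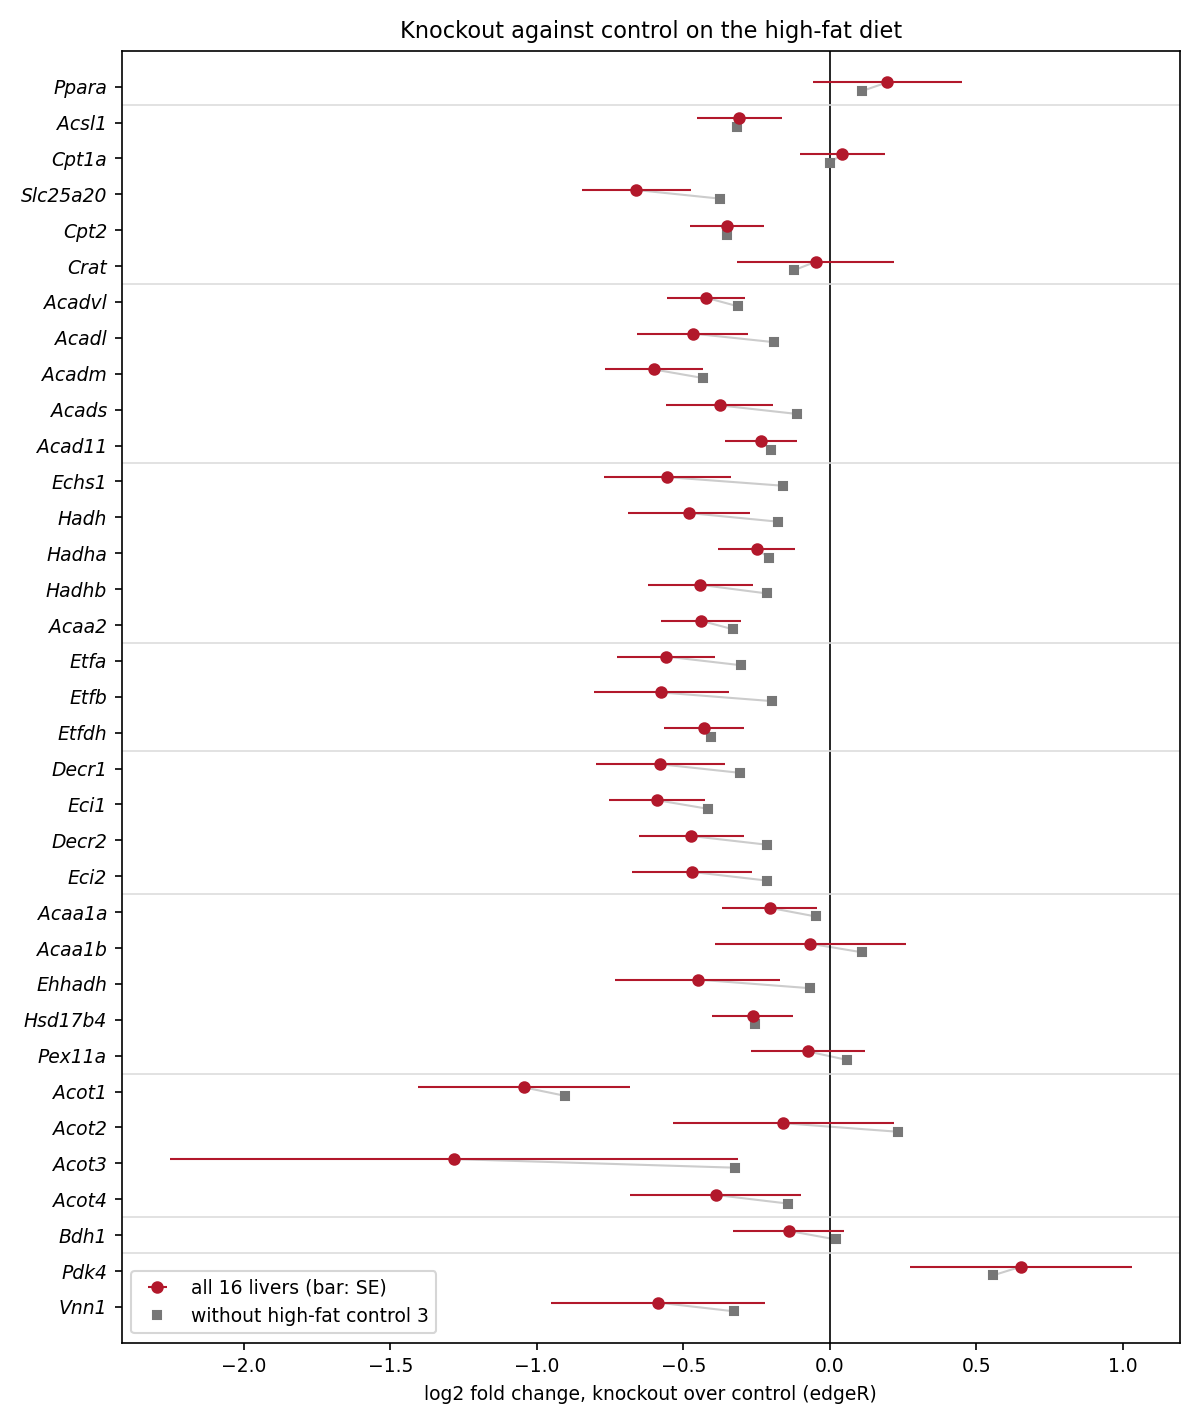
Log2 fold change of each gene, knockout over control on the high-fat diet (x axis), for all 16 livers with its SE as a bar, and without high-fat control 3. Genes run down the page by role. Points without that liver lie closer to 0 for most genes, while 28 of 35 stay below 0.

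Among the genes of activation and carnitine transport, the carrier and the second transferase were lower without overlap. Slc25a20 (ENSMUSG00000032602, chromosome 9, 108662088 to 108684641, plus strand) encodes the carnitine-acylcarnitine carrier of the inner mitochondrial membrane. It was at 109, 93.8, 86.2 and 105 CPM in high-fat knockouts and at 121, 124, 239 and 138 CPM in high-fat controls. On chow it was at 103, 117, 105 and 97.2 CPM in knockouts and at 110.5, 88.3, 125 and 102 CPM in controls. The groups were separate on the high-fat diet and overlapped on chow. Means on the high-fat diet were 98.4 ± 10.3 CPM in knockouts and 156 ± 56.3 CPM in controls (mean ± SD, n = 4 each), a log2 fold change of -0.66 (SE 0.19, adjusted p = 0.103 by edgeR). Without high-fat control 3 the control mean was 128 ± 8.81 CPM (SD, n = 3) and the log2 fold change -0.38.

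Cpt2, the carnitine palmitoyltransferase of the inner membrane, was at 111, 96.7, 109 and 117 CPM in high-fat knockouts and at 133, 153, 139 and 129 CPM in high-fat controls. The groups did not overlap. Its log2 fold change was -0.35 with all livers (SE 0.13, adjusted p = 0.136 by edgeR) and -0.35 without high-fat control 3. Cpt1a (ENSMUSG00000024900, chromosome 19, 3322334 to 3385733, plus strand), the outer-membrane transferase that commits long-chain acids to oxidation, was at 651, 560.0, 588 and 713 CPM in high-fat knockouts and at 609, 676, 557 and 600.5 CPM in high-fat controls. In chow livers it was at 651, 567, 559.9 and 449 CPM in knockouts and at 446, 479, 562 and 623 CPM in controls. All groups overlapped. Its log2 fold change on the high-fat diet was 0.04 (SE 0.14, adjusted p = 0.881 by edgeR), and it was below 0 in 3 other settings, which left out high-fat knockout 4, put the unspliced share in the model, or used length and GC offsets. Crat, which moves acetyl groups between carnitine and CoA, was at 55 ± 17.1 CPM in high-fat knockouts and 57 ± 8.54 CPM in high-fat controls (mean ± SD, n = 4 each).

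The acyl-CoA dehydrogenases take the first step of the cycle, each on its own range of chain lengths. All 5 had log2 fold changes below 0 on the high-fat diet, from -0.60 to -0.24, and 5 of 5 were below 0 without high-fat control 3, from -0.43 to -0.11. Acadm (ENSMUSG00000062908, chromosome 3, 153922357 to 153944632, minus strand), the medium-chain enzyme, was at 320.3, 252, 245 and 324 CPM in high-fat knockouts and at 340.1, 385, 576 and 430.4 CPM in high-fat controls. On chow it was at 302, 318, 295 and 301 CPM in knockouts and at 309.5, 275, 348 and 411 CPM in controls. Every high-fat knockout was below every high-fat control, and the chow groups overlapped. The high-fat means were 285 ± 42.6 CPM in knockouts and 433 ± 102 CPM in controls (mean ± SD, n = 4 each), or -0.60 as a log2 fold change (SE 0.17, adjusted p = 0.103 by edgeR) and of -0.43 without high-fat control 3.

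Acadvl, the very long-chain enzyme, was at 366, 328, 349.8 and 376 CPM in high-fat knockouts and at 427, 409, 580.2 and 489 CPM in high-fat controls, again without overlap. Knockout over control gave -0.42 on the log2 scale (SE 0.13, adjusted p = 0.112 by edgeR), and -0.31 without high-fat control 3. For the short-chain enzyme Acads and the long-chain enzyme Acadl the size rested on that liver. Acads had -0.38 ± 0.18 with all livers and -0.11 without it, and Acadl had -0.47 ± 0.19 with all livers and -0.19 without it, as log2 fold changes ± SE. Acad11, a further acyl-CoA dehydrogenase, was at 483 ± 36.2 CPM in high-fat knockouts and 568 ± 41.9 CPM in high-fat controls (mean ± SD, n = 4 each).

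Log2 fold changes of the 5 enzymes from hydration to thiolysis ran from -0.56 to -0.25. Acaa2, the thiolase, was at 779, 665, 763 and 827 CPM in high-fat knockouts and at 875, 943, 1258 and 1045 CPM in high-fat controls. The groups did not overlap, with a log2 fold change of -0.44 (SE 0.14, adjusted p = 0.112 by edgeR) and of -0.33 without high-fat control 3. Echs1, the short-chain enoyl-CoA hydratase, was at 210.4, 196, 208 and 229 CPM in high-fat knockouts and at 233, 219, 534 and 255 CPM in high-fat controls. Control replicate 3 stood far above the other controls, and the log2 fold change was -0.56 with it (SE 0.22, adjusted p = 0.156 by edgeR) and -0.16 without it. Hadh, the 3-hydroxyacyl-CoA dehydrogenase, had a log2 fold change of -0.48 with that liver (SE 0.21, adjusted p = 0.195 by edgeR) and -0.18 without it. Hadha and Hadhb encode the alpha and beta subunits of the mitochondrial trifunctional protein and lie head to head on chromosome 5, Hadha from 30118304 to 30155162 on the minus strand and Hadhb from 30155248 to 30184593 on the plus strand. Hadha was at 325 ± 30.9 CPM in high-fat knockouts and 387 ± 40 CPM in high-fat controls (mean ± SD, n = 4 each). Hadhb was at 82.9 ± 12.7 CPM in high-fat knockouts and 113 ± 34.8 CPM in high-fat controls (mean ± SD, n = 4 each).

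Electrons from the dehydrogenases pass to the electron transfer flavoprotein, with subunits from Etfa and Etfb, and on to the dehydrogenase Etfdh in the inner membrane. Etfa was at 159, 142, 155 and 179.5 CPM in high-fat knockouts and at 182, 194, 348 and 214 CPM in high-fat controls. In chow livers it was at 235, 225, 202 and 218 CPM in knockouts and at 211, 217, 219 and 226 CPM in controls. The high-fat groups did not overlap, and the high-fat knockouts were also below all 8 chow livers. On the log2 scale the fold change was -0.56 on the high-fat diet (SE 0.17, adjusted p = 0.108 by edgeR), and -0.30 without high-fat control 3. Etfdh (ENSMUSG00000027809, chromosome 3, 79603788 to 79629500, minus strand) was at 292, 252, 239 and 286 CPM in high-fat knockouts and at 329, 319, 378 and 414 CPM in high-fat controls. On chow it was at 312, 379, 343 and 289 CPM in knockouts and at 344, 272, 293 and 345 CPM in controls. The high-fat groups did not overlap, and high-fat control 3 was not the highest. The log2 fold change was -0.43 (SE 0.14, adjusted p = 0.112 by edgeR), and -0.41 without that liver. Etfb was at 40, 38.7, 52.9 and 50.3 CPM in high-fat knockouts and at 54.9, 50.3, 115 and 51.2 CPM in high-fat controls, with overlap.

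Double bonds in natural fatty acids are dealt with by 2 reductases and 2 isomerases, of which Decr1 and Eci1 are mitochondrial and Decr2 and Eci2 peroxisomal. All 4 had log2 fold changes of -0.59 to -0.47 on the high-fat diet, and -0.42 to -0.22 without high-fat control 3. Eci1 (ENSMUSG00000024132, chromosome 17, 24426641 to 24439348, plus strand) had the smallest p of the 35 genes in this comparison. It was at 98.4, 80.8, 76 and 99.4 CPM in high-fat knockouts and at 98.3, 116, 179 and 141 CPM in high-fat controls. In chow livers it was at 104, 91.1, 90.6 and 89.1 CPM in knockouts and at 109, 93.3, 122 and 113 CPM in controls. The high-fat groups overlapped by high-fat control 1 alone. Knockout over control gave -0.59 on the log2 scale (SE 0.16, adjusted p = 0.102 by edgeR), and -0.42 without high-fat control 3. Decr1 was at 188 ± 25.4 CPM in high-fat knockouts and 281 ± 106 CPM in high-fat controls. Decr2 was at 198 ± 18.9 CPM in high-fat knockouts and 275 ± 94.6 CPM in high-fat controls, and Eci2 at 146 ± 20.5 CPM in high-fat knockouts and 203 ± 68.3 CPM in high-fat controls (mean ± SD, n = 4 each). The SD of the controls was several times that of the knockouts for all 3 genes.

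**Figure D3:**
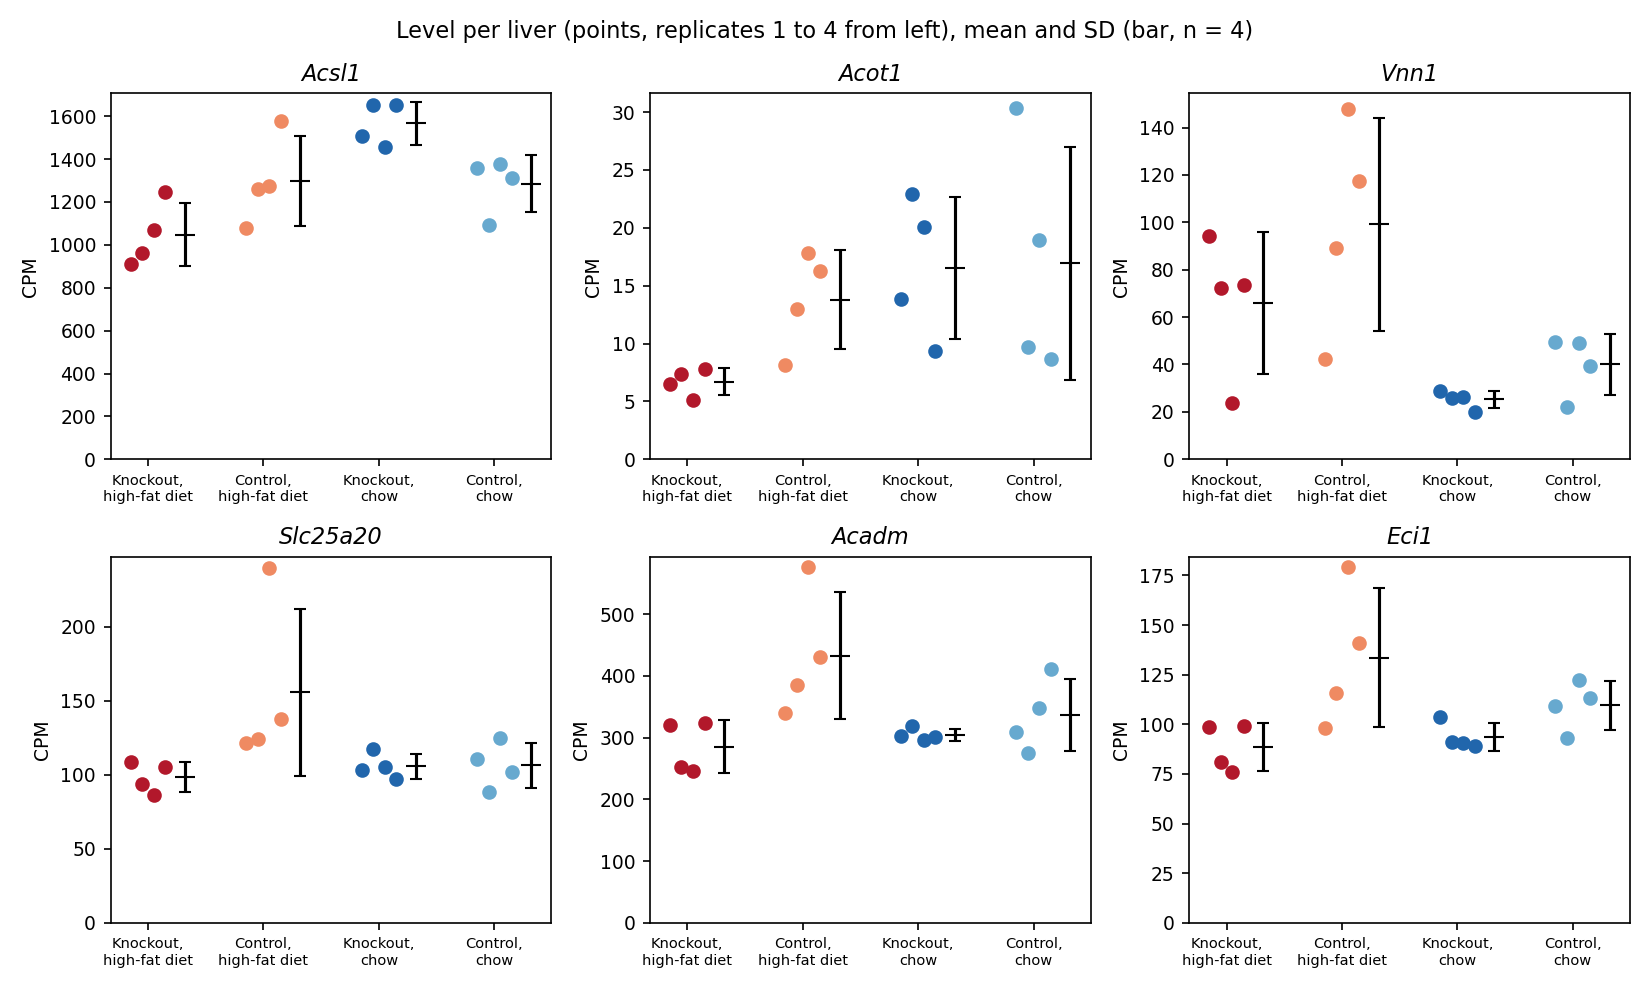
CPM per liver (y axis, from 0) of 6 genes in the 4 groups on the x axis, with points for replicates 1 to 4 from left to right and the mean with its SD beside them. The means of Slc25a20, Acadm and Eci1 are lowest in the high-fat knockouts, with high-fat control 3 the highest point, while Acsl1 and Acot1 separate the knockouts on the high-fat diet from those on chow and Vnn1 is higher on the high-fat diet in most livers.

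Beside Decr2, Eci2 and the thioesterases, 5 peroxisomal genes were listed, 2 thiolases, 2 multifunctional enzymes and Pex11a. Their log2 fold changes ran from -0.45 to -0.07, and from -0.26 to 0.11 without high-fat control 3, and 0 of 5 had an unadjusted p under 0.05. Ehhadh, the peroxisomal bifunctional enzyme, was at 231, 215, 198 and 246 CPM in high-fat knockouts and at 138, 278, 519 and 284 CPM in high-fat controls. The controls spanned the knockouts on both sides. Hsd17b4, the other peroxisomal multifunctional enzyme, was at 455 ± 56.1 CPM in high-fat knockouts and 546 ± 27 CPM in high-fat controls. Pex11a, which acts in peroxisome division, was at 56.7 ± 10.7 CPM in high-fat knockouts and 59.8 ± 13.5 CPM in high-fat controls (mean ± SD, n = 4 each). Of the peroxisomal thiolases, Acaa1b was at 1082, 859, 491 and 840.1 CPM in high-fat knockouts and at 292, 982, 1155 and 1000.2 CPM in high-fat controls, with wide overlap.

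The thioesterases Acot1 to Acot4 release free fatty acids from acyl-CoA, Acot1 in the cytosol, Acot2 in mitochondria and Acot3 and Acot4 in peroxisomes, and they lie side by side on chromosome 12. Acot1 (ENSMUSG00000072949, chromosome 12, 84009490 to 84018371, plus strand) was at 6.49, 7.34, 5.16 and 7.78 CPM in high-fat knockouts and at 8.13, 13, 17.8 and 16.3 CPM in high-fat controls. In chow livers it was at 13.8, 22.9, 20.1 and 9.35 CPM in knockouts and at 30.3, 9.74, 18.9 and 8.65 CPM in controls. Every high-fat knockout was below all 12 other livers. The log2 fold change on the high-fat diet was -1.05 (SE 0.36, adjusted p = 0.128 by edgeR), and -0.90 without high-fat control 3. Acot3 was at 1.92, 2.41, 1.65 and 13.5 CPM in high-fat knockouts and at 0.542, 5.73, 28.9 and 11.5 CPM in high-fat controls. The controls ran from below to above all knockouts. Acot4 was at 35 ± 9.23 CPM in high-fat knockouts and 45.9 ± 16.5 CPM in high-fat controls, and Acot2 was at 6.05 ± 1.98 CPM in high-fat knockouts and 6.75 ± 4.03 CPM in high-fat controls (mean ± SD, n = 4 each).

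For the receptor, the ketone body enzyme and the fuel switch kinase, the genotypes overlapped on both diets. Ppara (ENSMUSG00000022383, chromosome 15, 85734983 to 85802819, plus strand) was at 211, 235, 301 and 282 CPM in high-fat knockouts and at 235, 281, 183 and 198 CPM in high-fat controls. In chow livers it was at 349.6, 190.3, 196 and 121 CPM in knockouts and at 164, 119, 178 and 223 CPM in controls. The groups overlapped on both diets, with log2 fold changes of 0.20 on the high-fat diet (SE 0.25, adjusted p = 0.667 by edgeR) and 0.32 on chow (SE 0.26, adjusted p = 0.688 by edgeR). The high-fat value was 0.11 without high-fat control 3. The chow value rested on chow knockout 1, without which it was -0.02. Bdh1 (ENSMUSG00000046598, chromosome 16, 31422280 to 31458901, plus strand), which reduces acetoacetate to 3-hydroxybutyrate, was at 243, 237, 195 and 263 CPM in high-fat knockouts and at 162, 253, 341 and 278 CPM in high-fat controls. Chow knockouts were at 149.9, 194, 202 and 184 CPM and chow controls at 203, 204, 191 and 276 CPM. The high-fat knockouts lay within the range of the high-fat controls, with a log2 fold change of -0.14 (SE 0.19, adjusted p = 0.677 by edgeR), and of 0.02 without high-fat control 3.

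Pdk4 (ENSMUSG00000019577, chromosome 6, 5483351 to 5496309, minus strand), the kinase that inactivates pyruvate dehydrogenase and so spares glucose when fat is burned, was at 10.3, 11.3, 5.27 and 6.78 CPM in high-fat knockouts and at 4.54, 5.22, 4.26 and 7.34 CPM in high-fat controls. On chow it was at 6.43, 10.8, 7.65 and 4.78 CPM in knockouts and at 14, 4.57, 3.18 and 6.4 CPM in controls. Both pairs overlapped. Its log2 fold change on the high-fat diet, 0.65 (SE 0.38, adjusted p = 0.32 by edgeR), was the highest of the 35, and it was 0.56 without high-fat control 3.

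On chow, the comparison of knockout with control livers asks the same question without the high-fat diet. Values lay on both sides of 0 and none was called. The median log2 fold change was -0.05, with 22 of 35 below 0, beside -0.01 and 51% over all genes tested. The sign of that median rested on single livers, since it was 0.03 without chow control 4 and 0.01 without chow knockout 4, and 0.15 in a model with the unspliced share. That share did not overlap between genotypes on chow, so it cannot be told apart from genotype there. edgeR called 0 of the 35 (0.0139% of all genes tested), and 2 were lower and 0 higher at an unadjusted p under 0.05, where 4.42% and 5.1% of all genes tested were. DESeq2 and limma-voom also called 0, where they called 0.348% and 0.0209% of all genes tested. Acsl1 was the 1 gene higher without overlap and Acaa2 the 1 gene lower without overlap, where 3.43% and 2.93% of all genes tested were.

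The 3 genes with the smallest p on chow were Acaa1a, Acads and Acsl1. Acaa1a (ENSMUSG00000036138, chromosome 9, 119339676 to 119350299, plus strand), a peroxisomal thiolase, was at 116, 79.4, 79.9 and 96.2 CPM in chow knockouts and at 108, 107, 149 and 114 CPM in chow controls, which overlapped. The log2 fold change was -0.36 (SE 0.16, adjusted p = 0.506 by edgeR), and reads shared with Acaa1b are a limit. Acads (ENSMUSG00000029545, chromosome 5, 115110299 to 115119346, minus strand) was at 135, 134, 142 and 166 CPM in chow knockouts and at 179, 189, 236 and 157 CPM in chow controls. Only chow knockout 4 exceeded the lowest control, with a log2 fold change of -0.40 (SE 0.18, adjusted p = 0.509 by edgeR). On the high-fat diet Acads was at 173, 156, 151 and 172 CPM in knockouts and at 174, 173, 319 and 183 CPM in controls.

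Acsl1 (ENSMUSG00000018796, chromosome 8, 46471037 to 46536051, plus strand), the main long-chain acyl-CoA synthetase of the liver, differed in direction between the diets. It was at 911, 964, 1069 and 1245 CPM in high-fat knockouts and at 1078, 1259.7, 1275 and 1579 CPM in high-fat controls. On chow it was at 1508, 1652, 1455 and 1652 CPM in knockouts and at 1360.5, 1092, 1378 and 1311 CPM in controls. All 4 chow knockouts were above all 4 chow controls, while the high-fat groups overlapped with the knockouts lower on average. Knockout over control gave log2 values of -0.31 on the high-fat diet (SE 0.14, adjusted p = 0.226 by edgeR) and 0.29 on chow (SE 0.14, adjusted p = 0.534 by edgeR), and neither was called. The first was -0.32 without high-fat control 3.

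The interaction, the knockout effect on the high-fat diet minus that on chow, tests the difference between the diets directly. edgeR called 0 of the 35 and 0% of all genes tested, DESeq2 called 0 of the 35, against 0.578% of all genes tested, and limma-voom called 0 of both. The median of the interaction on the log2 scale was -0.33, with 29 of 35 below 0, beside -0.01 and 50.6% for all genes tested. Without high-fat control 3 the median was -0.16, with 24 of 35 below 0, beside 50.7% of all genes tested. At an unadjusted p under 0.05 there were 6 genes, all below 0, where 5.89% of all genes tested were below 0 and 5.37% above. The 6 were Acsl1, Slc25a20, Hadhb, Etfa, Etfdh and Eci2. Acsl1 had the smallest p, with -0.60 (SE 0.20, adjusted p = 0.301 by edgeR), and -0.60 without high-fat control 3. Etfdh had -0.51 (SE 0.19, adjusted p = 0.339 by edgeR) and Slc25a20 -0.65 (SE 0.26, adjusted p = 0.359 by edgeR). Leaving out high-fat control 3 gave -0.49 for Etfdh and -0.37 for Slc25a20.

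Diet was compared within each genotype. In the knockouts, Acsl1 and Acot1 fell and Vnn1 rose on the high-fat diet. These were the 3 genes called by edgeR of the 35, where 10.6% of all genes tested were called, so the count was near that over all genes. The diet comparisons share their livers with the genotype comparisons. Its median log2 fold change, high-fat diet over chow, was -0.06, with 21 of 35 below 0, beside 0.02 and 48.1% over all genes tested. At an unadjusted p under 0.05, 2 genes were higher and 6 lower, where 14.8% and 14% of all genes tested were. DESeq2 called 4, the same 3 and Hadha, and limma-voom called 2, Acsl1 and Acot1, where they called 15.8% and 11% of all genes tested. Upper-quartile scaling moved the median of all genes to 0.12 and that of the 35 to 0.03, with 13 of 35 below 0, 2 called in each direction, and 10.3% of all genes tested called.

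Acsl1 fell in the knockouts on the high-fat diet, to a mean of 1047 ± 147 CPM, against 1567 ± 101 CPM in chow knockouts (mean ± SD, n = 4 each). High-fat diet over chow gave -0.58 on the log2 scale (SE 0.14, adjusted p = 0.0187 by edgeR), and the 4 high-fat livers were all below the 4 chow livers. It stayed between -0.67 and -0.52 when any 1 liver was left out, and the call was lost without chow knockout 2 or 4 or high-fat knockout 1 or 2. Acot1 fell to 6.69 ± 1.15 CPM in high-fat knockouts, against 16.5 ± 6.11 CPM in chow knockouts (mean ± SD, n = 4 each), a log2 fold change of -1.31 (SE 0.36, adjusted p = 0.0304 by edgeR). That call was lost in 5 of 16 fits without 1 liver, with values of -1.51 to -1.11. Vnn1 (ENSMUSG00000037440, chromosome 10, 23894688 to 23905343, plus strand), a pantetheinase known as a target of PPAR alpha, was at 94.4, 72.2, 23.8 and 73.5 CPM in high-fat knockouts and at 28.7, 25.9, 26.4 and 20.1 CPM in chow knockouts. High-fat knockouts 1, 2 and 4 were far above the chow range, while high-fat knockout 3 lay inside it. Vnn1 rose, with a log2 fold change of 1.39 (SE 0.38, adjusted p = 0.0277 by edgeR), and the call was lost in 6 of 16 fits without 1 liver, with values of 1.16 to 1.66.

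In 7 genes every high-fat knockout was below every chow knockout, where 12.4% of all genes tested were, and in 1 gene every one was above, where 12% were. The 7 were Acsl1, Acadl, Hadha, Acaa2, Etfa, Ehhadh and Acot1, and the 1 was Acaa1a. Etfa had a log2 fold change of -0.47 (SE 0.17, adjusted p = 0.077 by edgeR), Hadha -0.35 (SE 0.13, adjusted p = 0.0905 by edgeR) and Acaa1a 0.44 (SE 0.16, adjusted p = 0.0841 by edgeR). Ehhadh had -0.52 (SE 0.28, adjusted p = 0.231 by edgeR), and none of these 4 passed the test with all livers. Without high-fat control 3, a liver outside this comparison that enters the shared estimate of spread, 6 genes were called, where 20.2% of all genes tested were. They were Acsl1, Acadl, Etfa and Acot1, which fell, and Acaa1a and Vnn1, which rose. The high-fat knockouts held higher unspliced shares and lower summed hepatocyte markers than the chow knockouts. The share did not overlap between the 2 groups, so it cannot be told apart from diet here. In a model with that share the median was 0.17, and 4 genes were called, all higher, where 6.08% of all genes tested were called. They were Acads, Acaa1a, Vnn1 and Bdh1, without Acsl1 and Acot1.

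**Figure D4:**
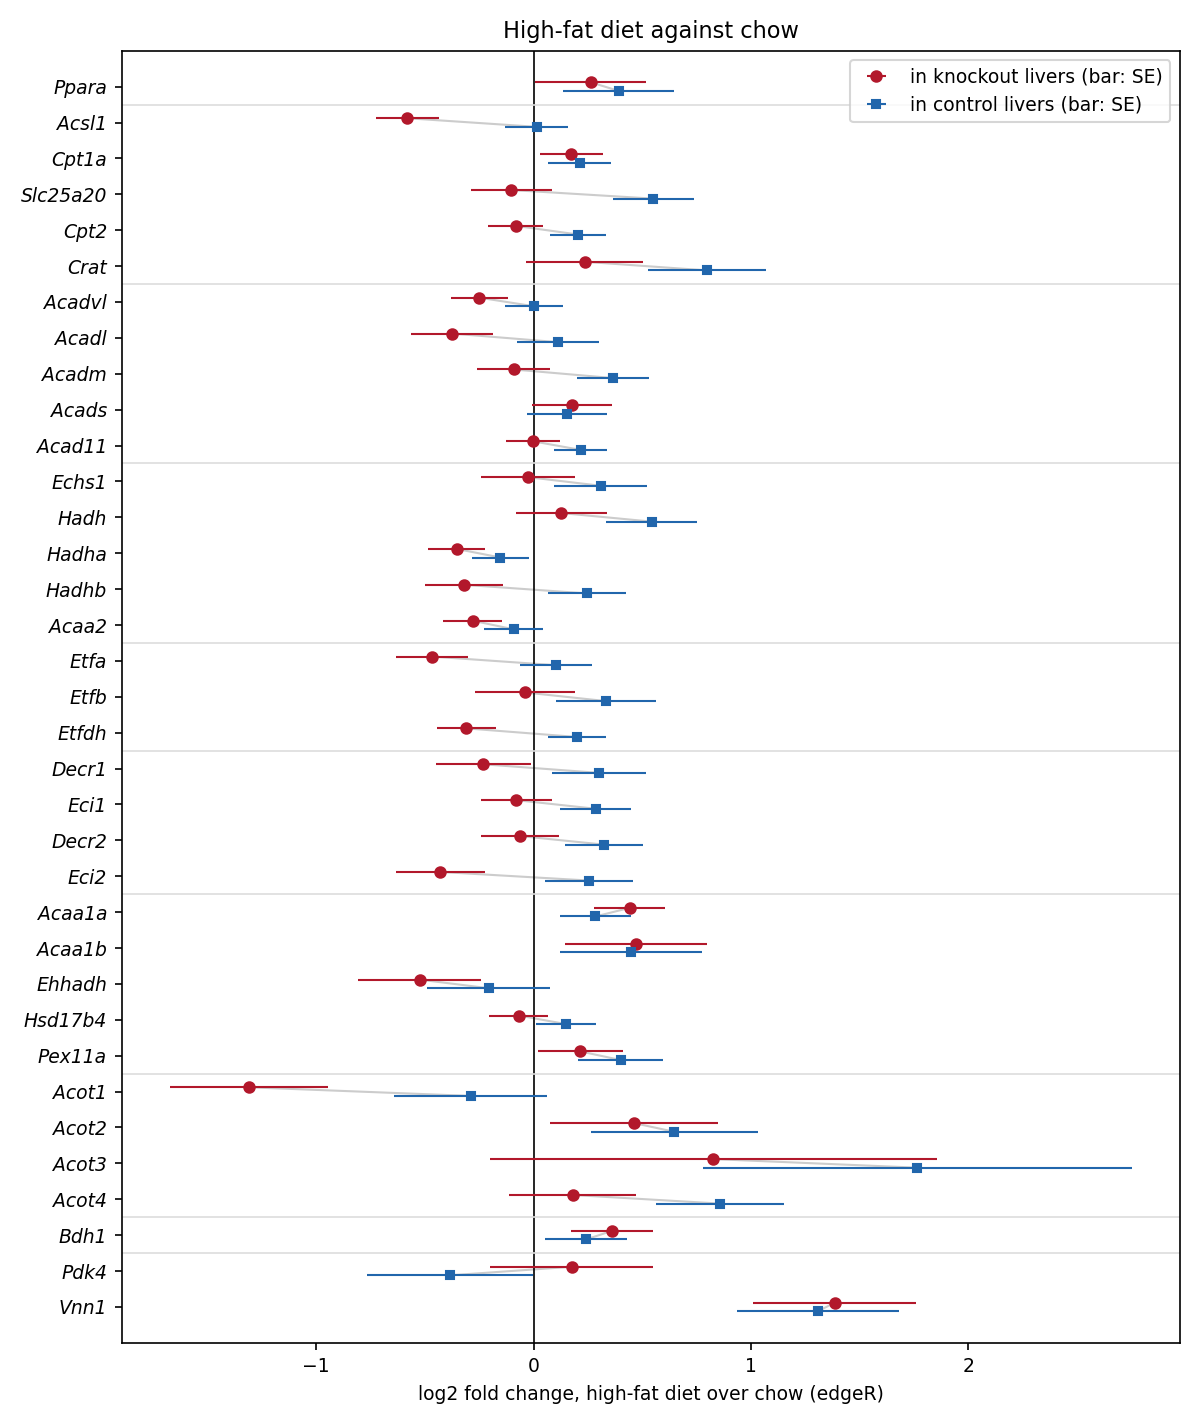
Log2 fold change of each gene, high-fat diet over chow (x axis), in knockout livers and in control livers, with SE as bars and genes by role down the page. Vnn1 is the farthest to the right in knockouts and Acot1 the farthest to the left, and for most genes the knockout point lies left of the control point.

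In the control livers the high-fat diet went with slightly higher levels of most genes, and none was called. The median log2 fold change was 0.26, with 30 of 35 above 0, beside 0.01 and 51.3% over all genes tested. edgeR called 0 of the 35, where it called 1.83% of all genes tested, and 6 were higher and 0 lower at an unadjusted p under 0.05, where 9.98% and 7.09% were. DESeq2 called Vnn1 alone, where it called 5.53% of all genes tested, and limma-voom called 0, where it called 1.24%. In a model with the unspliced share, 8 genes were called, all higher, where 8.06% of all genes tested were called. They were Eci1, Echs1, Hadh, Slc25a20, Decr2, Vnn1, Acot4 and Acadm. The share was 0.0512% to 0.164% in high-fat controls 1, 2 and 4, above every chow control, at 0.0263% to 0.0411%. Only high-fat control 3, at 0.0218%, lay below them, so apart from that liver the share cannot be told apart from diet in the controls. Without high-fat control 3 the median was 0.11, with 24 of 35 above 0, beside 48.3% of all genes tested, and 4 genes were higher and 1 lower at an unadjusted p under 0.05, where 11.7% and 9.03% of all genes tested were. In 0 genes were the groups free of overlap, where 3.21% of all genes tested were higher and 4.01% lower in that way.

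Vnn1 had the smallest p in this comparison. It was at 42.2, 89, 148 and 117 CPM in high-fat controls and at 49.5, 22.1, 49.3 and 39.3 CPM in chow controls. High-fat control 1 lay inside the chow range and the other 3 above it, with a log2 fold change of 1.31 (SE 0.37, adjusted p = 0.077 by edgeR), and of 1.05 without high-fat control 3. Slc25a20 had 0.55 (SE 0.19, adjusted p = 0.131 by edgeR), and 0.27 without that liver. Crat (ENSMUSG00000026853, chromosome 2, 30400471 to 30415813, minus strand) was at 54.3, 57.3, 47.9 and 68.3 CPM in high-fat controls and at 54.2, 22.4, 26.3 and 28.3 CPM in chow controls. Chow control 1 sat among the high-fat livers and the other 3 chow livers below them. High-fat diet over chow gave 0.80 on the log2 scale (SE 0.27, adjusted p = 0.133 by edgeR), and without high-fat control 3 it was 0.87, with no overlap left between the groups, where 8.75% of all genes tested were higher without overlap. In the knockouts Crat was at 70, 58.1, 30.5 and 61.6 CPM on the high-fat diet and at 44.3, 64.8, 38.8 and 39.1 CPM on chow.

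Genes next to these in the same pathways were taken from a list of 74, of which 73 matched a row and 72 were tested. Gyk matched none and Cpt1b, the muscle form of the first transferase, was too low. For knockout against control, edgeR called 0 of the 72 on the high-fat diet, on chow or in the interaction. At an unadjusted p under 0.05, 22 were lower and 3 higher on the high-fat diet, where 12.8% and 8.54% of all genes tested were. On chow 8 were lower and 3 higher, where 4.42% and 5.1% were, and in the interaction 11 were lower and 2 higher, where 5.89% and 5.37% were. Without high-fat control 3, 9 were lower on the high-fat diet, where 7.14% of all genes tested were. Fewer were then lower in the interaction than with all livers. DESeq2 called 6 lower and 2 higher on the high-fat diet, where it called 4.41% of all genes tested, 0 on chow (0.348%) and 1, above 0, in the interaction (0.578%). The limma-voom fit called 1 higher in the knockouts on the high-fat diet, where it called 0.216% of all genes tested, and 0 on chow (0.0209%) and in the interaction (0%).

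In the knockouts, edgeR called 5 of the 72 neighbours lower and 4 higher on the high-fat diet, where it called 5.35% of all genes tested lower and 5.21% higher, so these counts were near those over all genes. Without high-fat control 3 it called 15 lower and 7 higher, and 20.2% of all genes tested in either direction. Lower were Phyh, which starts the breakdown of phytanic acid, at -0.69 (SE 0.17, adjusted p = 0.0193 by edgeR), and Acadsb, a dehydrogenase of branched short chains, at -0.63 (SE 0.15, adjusted p = 0.0145 by edgeR). The acyl-CoA synthetases Acsl4 and Acsl5 fell, with log2 fold changes of -0.81 (SE 0.13, adjusted p = 0.00241 by edgeR) and -0.65 (SE 0.20, adjusted p = 0.0446 by edgeR), and the peroxisomal transporter Abcd3 fell, at -0.66 (SE 0.15, adjusted p = 0.0132 by edgeR). The Acsl5 call was lost in 11 of 16 fits without 1 liver, and those of Phyh, Acadsb and Abcd3 without high-fat knockout 2. In a model with the unspliced share all 4 calls were lost, at -0.50 for Phyh, -0.41 for Acadsb, -0.47 for Abcd3 and -0.25 for Acsl5, while that of Acsl4 was not. Higher were Cd36, a fatty acid uptake receptor, at 1.90 (SE 0.43, adjusted p = 0.0127 by edgeR), and Cidec, a lipid droplet protein, at 4.17 (SE 0.87, adjusted p = 0.00893 by edgeR). Cidec was at 50.7, 8.06, 1.17 and 8.64 CPM in high-fat knockouts and at 0.39, 0.592, 1.08 and 1.64 CPM in chow knockouts. High-fat knockout 1 was far above the others, and high-fat knockout 3 lay inside the chow range. Without high-fat knockout 1 the log2 fold change was 2.65 and still called, and limma-voom gave 3.21 with no call (adjusted p = 0.145). Ucp2, a mitochondrial carrier of the uncoupling protein family, rose, at 1.06 (SE 0.18, adjusted p = 0.00367 by edgeR), and the peroxisomal membrane gene Pex11g rose, at 0.63 (SE 0.16, adjusted p = 0.021 by edgeR). The Pex11g call was lost in 3 of 16 fits without 1 liver and in the model with the unspliced share (adjusted p = 0.0612 by edgeR).

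In the control livers, edgeR called 2 of the 72 lower and 2 higher on the high-fat diet, where it called 0.885% and 0.941% of all genes tested. Acacb, whose product makes the malonyl-CoA that inhibits the outer-membrane transferase, was at 43.6, 66.5, 64.3 and 46.1 CPM in high-fat controls and at 266, 248, 168 and 291 CPM in chow controls. It was lower in 4 of 4 high-fat livers, with a log2 fold change of -2.14 (SE 0.32, adjusted p = 0.00493 by edgeR). In the knockouts it was at 117, 159, 54 and 161 CPM on the high-fat diet and at 112, 264, 252 and 306 CPM on chow, and that change was not called (-0.93, SE 0.31, adjusted p = 0.0626 by edgeR). The difference between genotypes in the Acacb change was not called either, as the interaction by edgeR called 0 of all genes tested. Acsl4 fell, at -0.81 (SE 0.13, adjusted p = 0.00557 by edgeR). Cd36 rose, at 1.74 (SE 0.43, adjusted p = 0.0447 by edgeR) and Mgll, the monoacylglycerol lipase, rose, at 0.66 (SE 0.16, adjusted p = 0.0415 by edgeR), and these calls were lost in 11 and 10 of 16 fits without 1 liver. Leaving out high-fat control 3 gave log2 fold changes in controls of -2.22 for Acacb, -0.96 for Acsl4, 1.52 for Cd36 and 0.60 for Mgll, and all 4 were called then.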

How the data were processed

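RNA of 16 mouse livers was extracted with RNeasy columns and made into stranded, ribosomal RNA-depleted libraries, per the labels' protocols. The deposited unit is a raw read count per gene. STAR 2.5.4a, featureCounts 1.5.1, DESeq2 and the build GRCm38 are named per the submitters' processing notes, and the sources used here do not give the strand setting or the treatment of reads that map to several places. The members and lists were chosen with earlier results of these data known.

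Genes were kept by edgeR's expression filter with a minimum count of 10, which left 14351 of 53801. One edgeR 4.0.16 quasi-likelihood model (R 4.3.3) with a term per group was fitted to all 16 livers with TMM factors, and its 5 contrasts were adjusted by Benjamini-Hochberg over all genes tested at 0.05. The SE is the size of the log2 fold change divided by the square root of F. Alternatives were RLE and upper-quartile factors, no filter, DESeq2 1.42.0, limma-voom 3.58.1, a fit of the compared groups alone, each liver left out, 2 livers left out, the log2 unspliced share as covariate, and length and GC offsets. The fit was tested on simulated data. Within groups, no 2 livers agreed within sampling noise (chi-square per degree of freedom 12.3 to 126). Totals per liver were 11938596 to 23250885, and the common biological coefficient of variation was 0.247.

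Genes were named where called, where their p was among the 3 smallest of the 35 in a comparison, or as anchors of the pathway. Some anchors are not reported here. Others are named after their values were seen, to fill each role. Symbols and positions come from the GRCm38 annotation by Ensembl identifier, which covered 53706 genes, and promoters from RefSeq (GRCm38.p6).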

Additional observations from a re-analysis of the deposited data

Results flagged for a closer look

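A sample was singled out where its gap to the nearest liver of its group, divided by the range of the group, exceeded Dixon's critical value for 4 livers. This held in 10 of 148 groups tested, and chance gives about 1 in 20. High-fat control 3 was the highest of its group in 5 of the 10, for Slc25a20 (239 CPM), Acads (319 CPM), Echs1 (534 CPM), Hadh (646 CPM) and Etfb (115 CPM). Chow control 4 was the highest for Acadl (204 CPM) and Bdh1 (276 CPM). Chow knockout 1 was the highest for Eci1 (104 CPM). Chow knockout 4 was the lowest for Acad11 (442 CPM). High-fat knockout 4 was the highest for Acot3 (13.5 CPM).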

How the results depend on the processing

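No paired analysis was possible because no animal number occurs in more than 1 group. On the high-fat diet, knockout against control, the median log2 fold change of the 35 genes ran from -0.51 to -0.21 when any 1 liver was left out. Leaving out both high-fat control 3 and chow knockout 1 gave -0.19, and the log2 unspliced share as a covariate gave -0.061. The number called was 7 without the filter on low counts and 7 by DESeq2, against 0. On chow, 1 was called without the filter. The fit without the filter tested more genes than the 14351, in a number not given here, so its counts have no share beside them. For the diet in controls, 4 were called without the filter, 1 by DESeq2, 8 with the covariate and 0 to 1 with 1 liver left out, against 0. For the diet in knockouts, 8 were called with only the groups compared, 6 without the 2 livers, 7 with length and GC offsets and 0 to 6 with 1 liver left out, against 3, and the covariate moved the median to 0.17. Over all 14351 genes tested, the calls were 2829 with only the groups compared, 3283 without the 2 livers and 2253 with the offsets. With 1 liver left out they were 497 to 2904, against 1516. Length and GC offsets moved the median over all genes to -0.08 there, against 0.02. The interaction median was -0.10 without the 2 livers and ran from -0.47 to -0.16 with 1 liver left out, against -0.33. The log2 fold change of some genes changed sign. For Ppara it was -0.016 without chow knockout 1 (range over single livers left out -0.016 to 0.52) and -0.0011 without the 2 livers on chow, and -0.12 with the covariate on the high-fat diet. For Cpt1a on the high-fat diet it was -0.025 without high-fat knockout 4 (range -0.025 to 0.095), -0.050 with the covariate and -0.14 with offsets. For Bdh1 it was 0.020 without high-fat control 3 (range -0.31 to 0.020), 0.038 without the 2 livers and 0.24 with the covariate, also on the high-fat diet. Over all genes, the knockout called 2 on chow (308 without filter, 50 by DESeq2) and 16 on the high-fat diet (964 without filter, 633 by DESeq2, 34 with upper-quartile factors, 31 by limma-voom, 1 with only the groups compared, 0 with the covariate). The diet called 262 in controls (992 without filter, 794 by DESeq2, 1157 with the covariate, 60 with only the groups compared) and 1516 in knockouts (2829 with only the groups compared, 873 with the covariate). With 1 liver left out, the diet in controls called 103 to 955. The interaction called 0 (259 without filter, 83 by DESeq2). The cause of these shifts was not tested. A count of 3, taken as the limit of detection, was 0.135 to 0.292 CPM.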
